A study of Vigna radiata with 18 samples.

Results

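The outermost stretch of each chromosome was examined for open chromatin in leaves of mung bean (Vigna radiata, cultivar Weilv 9). Members were the ATAC-seq peaks whose centre lay within 1 Mb of the outermost peak, counted inwards from the start of the first peak or from the end of the last peak of a chromosome. On 11 chromosomes this gave 22 ends with 2360 peaks, 4.70% of the 50238 peaks of the list. The 1 Mb that follows inwards at each end held 2587 peaks (5.15%), and 45291 peaks (90.2%) lay further than 2 Mb from both ends. The rule used position and no measured value, but each window starts at a peak, so it holds at least that peak at its outer edge.

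ATAC-seq marks open DNA by letting the transposase Tn5 cut and tag it in isolated nuclei. The 18 libraries came from wild-type plants in 6 groups of 3 replicates, with nuclei from frozen first true leaves, although the labels also carry the tag protoplast. Plants of T1 had 24 h in 100 mM NaCl, 48 h of recovery without it and then 100 mM NaCl again, and plants of T2 had 100 mM NaCl with no earlier bath. Both were sampled at 0, 6 and 48 h of the last bath. The list used here joins the series into intervals with no value for any library, so salt regimes, times and replicates were not compared, and the depth behind a peak is unknown.

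Chromosome ends are capped by telomeres, short repeats bound by protective proteins, and the stretch just inside them is called subtelomeric. Subtelomeres of plants can hold repeats and duplicated gene copies next to ordinary genes. In many plants genes are denser towards the chromosome arms' outer parts than around the centromere, where repeats and closed chromatin prevail. Open sites in leaves mostly mark promoters and other regulatory DNA of genes. How far the assembly behind these coordinates reaches into the telomeres is not given in the sources used here, and distances below are from the outermost peak. The first peak started within 60 kb of base 1 on 9 chromosomes. On chromosome 1 it began at 131352 and on chromosome 5 at 376119, so windows there began further inside. Gene names and sequences were not used, since the gene table at hand is of another build.

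The terminal windows differed in peak number. They held 107 peaks on average ± 26.2 (SD, n = 22 ends), with a median of 116.5 and a range of 40 to 139. At the first ends, where coordinates begin, chromosomes 1 to 11 held 70, 126, 123, 116, 71, 109, 132, 129, 117, 95 and 122 peaks. At the last ends the same chromosomes held 139, 67, 121, 93, 130, 131, 108, 129, 87, 105 and 40 peaks. The fullest ends were the last of chromosome 1 (139), the first of chromosome 7 (132) and the last of chromosome 6 (131). The emptiest were the last of chromosome 11 (40), the last of chromosome 2 (67) and the first of chromosome 1 (70), with the first end of chromosome 5 close by at 71. Ordered by peak number, the largest step between neighbours was 27 peaks, from the last end of chromosome 11 (40) to the last end of chromosome 2 (67). The second largest was 16, from the first end of chromosome 5 (71) to the last end of chromosome 9 (87). Side-by-side windows of 1 Mb in the interior differed by a median of 16 peaks, which is another measure than a step in that order. Windows of 1 Mb were also laid from the first peak of each chromosome, without the first and last full one. Against the median of these on their chromosome, 13 of the 22 ends stood above and 9 below.

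**Figure D1:**
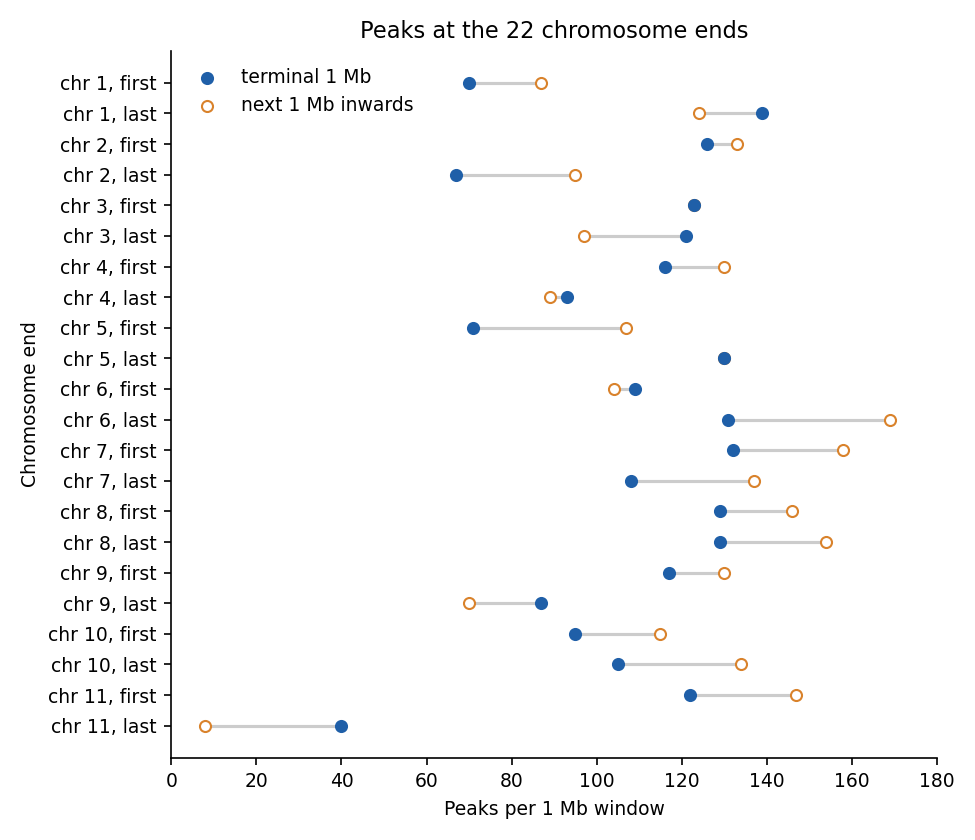
Peaks in the terminal 1 Mb (filled) and in the next 1 Mb inwards (open) for each of the 22 chromosome ends, joined by a line; the x axis is the number of peaks per window. The 2 values coincide at the first end of chromosome 3 (123) and the last end of chromosome 5 (130), and the last end of chromosome 11 stands apart with 40 and 8.

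The ends of one chromosome could be quite unlike. Chromosome 11 had 3.05 times as many peaks at its first end as at its last, 122 against 40. Chromosome 2 had 126 against 67, a ratio of 1.88. The order was the other way on chromosome 1 (70 against 139, 0.504) and on chromosome 5 (71 against 130, 0.546). On chromosome 8 both ends held 129 peaks, and on chromosome 3 they held 123 and 121. Neither kind of end was fuller throughout. First ends averaged 110 ± 22.01 (SD, n = 11) and last ends 104.5 ± 30.7 (SD, n = 11), with the first end higher on 6 chromosomes, lower on 4 and equal on 1. The log2 ratio of first to last end had a mean of 0.12 ± 0.74 (SD, n = 11 chromosomes; exact two-sided permutation p by sign flips 0.611, adjusted p = 0.919). This test and those below take the chromosome as the unit. A p asks whether the mean over chromosomes of this genome differs from 0, and says nothing about plants or libraries. Without chromosome 11 the mean log2 ratio was -0.03. Across the 11 chromosomes the counts at the first and last ends had a Pearson r of -0.48 and a Spearman rho of -0.43, given as a description.

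The terminal windows tended to hold fewer peaks than the next 1 Mb, but the difference did not pass the adjusted threshold of 0.05. The next windows held 118 peaks ± 35.2 (SD, n = 22 ends), with a median of 127. The terminal count was lower at 14 ends, higher at 6 and equal at 2. With both ends of a chromosome summed, it was lower on 8 of 11 chromosomes, from 0.803 times the next window on chromosome 10 to 1.11 times on chromosome 3. The mean log2 ratio was -0.12 ± 0.16 (SD, n = 11), a ratio of 0.919. Exact two-sided permutation by sign flips gave p = 0.0322, and p = 0.129 after adjustment over 4 tests. The typical step was close to that between other neighbours: the median absolute log2 ratio was 0.26 at the 22 ends and 0.22 over 437 pairs of neighbouring windows in the interior.

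Counted by kind of end, the terminal window was poorer at 9 of 11 first ends, equal at 1 and richer at 1. It was poorer at 5 last ends, equal at 1 and richer at 5. The first ends alone gave a mean log2 ratio of -0.20 ± 0.18 (SD, n = 11; exact sign-flip permutation p = 0.00391, adjusted p = 0.0156). The last ends alone gave 0.12 ± 0.78 (SD, n = 11; exact permutation p = 0.832), and -0.10 ± 0.30 (SD, n = 10; exact permutation p = 0.340) without chromosome 11. The adjustment covers 4 tests and not the separate use of first and last ends. Whether first and last ends differ in this ratio was not tested, and which end comes first is a choice of the assembly. The lowest ratios of single ends were 0.664 at the first end of chromosome 5 (71 against 107 peaks), 0.705 at the last end of chromosome 2 (67 against 95) and 0.775 at the last end of chromosome 6 (131 against 169). The highest were 5 at the last end of chromosome 11 (40 against 8), 1.25 at the last end of chromosome 3 (121 against 97) and 1.24 at the last end of chromosome 9 (87 against 70). At these last ends of chromosomes 9 and 11 the window inwards was itself sparse.

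Once the last end of chromosome 11 was not used, the mean log2 ratio was -0.15 ± 0.15 (SD, n = 11) and passed the threshold (exact permutation p = 0.0107, adjusted p = 0.0430), a choice made after the values were seen. Terminal windows at the remaining 21 ends held 110 peaks ± 22.02 (SD) and the next windows 123 ± 25.9 (SD). Further in, the third Mb held 112.5 peaks ± 38.2, the fourth 115 ± 28.9 and the fifth 113 ± 26.3 (SD, n = 22 ends). Against the second to the fifth Mb together the terminal window gave a log2 ratio of -0.10 ± 0.18 (SD, n = 11 chromosomes; exact permutation p = 0.116). The region further than 2 Mb from both ends held 99.7 peaks per Mb on average, a description with no test. Rich ends had rich neighbours: over 22 ends the terminal and next counts had a Pearson r of 0.83 and a Spearman rho of 0.74, and 0.73 and 0.71 over the 21 ends without the last of chromosome 11. These are descriptions over ends that share one list.

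Inside the terminal Mb, peaks thinned towards the very end. The outermost 100 kb held 8.50 peaks ± 2.74 (SD, n = 22 ends) and the second 100 kb held 8.41 ± 4.22. The third held 11.0 ± 4.33 and the fourth 13.0 ± 4.18, and from there to 1 Mb the means stayed between 10.8 and 11.4. Over the 200 kb at the end the mean was 8.45 per 100 kb, against 11.3 from 200 kb to 1 Mb and 11.5 from 1 to 5 Mb.

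**Figure D2:**
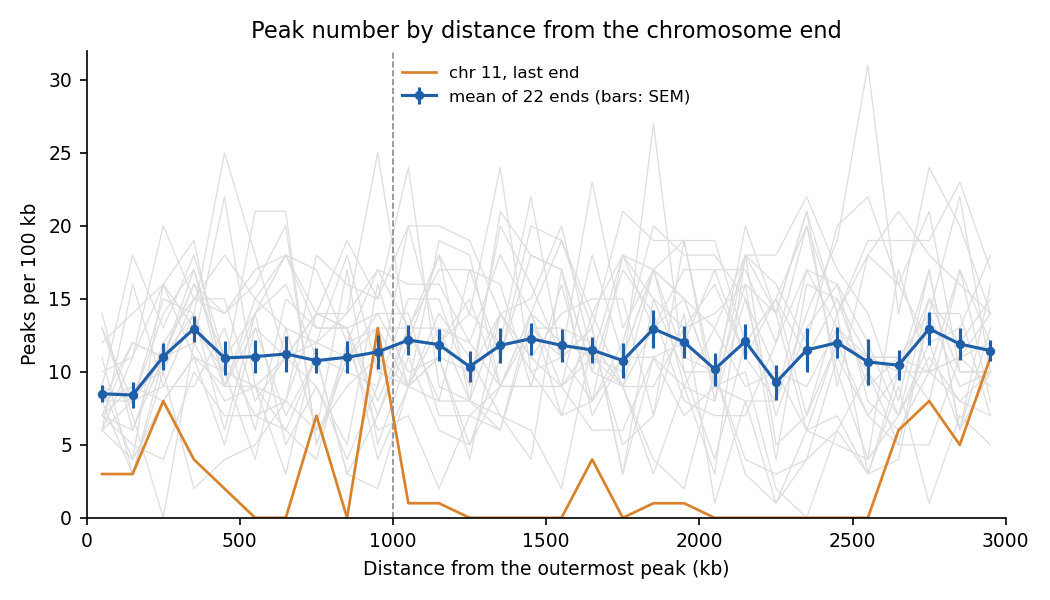
Mean number of peaks per 100 kb (y axis) by distance from the outermost peak in kb (x axis), over 22 ends with the standard error of the mean, single ends in grey and the last end of chromosome 11 in orange; the dashed line is the 1 Mb limit. The first points, at 8.50 and 8.41, lie below the others, which start at 11.0 and 13.0, and the orange line stays at or near 0 over much of its length.

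The thinning was present at most ends and did not rest on a single chromosome. The outer 200 kb was sparser per kb than the other 800 kb of the window at 16 of 22 ends, denser at 5 and equal at 1. The last end of chromosome 11, sparse throughout, went the same way, with 3.00 peaks per 100 kb in the outer 200 kb and 4.25 beyond. Per chromosome the log2 ratio was -0.44 ± 0.35 (SD, n = 11), a ratio of 0.740, lower on 10 of 11 chromosomes. The ratio was 0.519 on chromosome 3, 0.528 on chromosome 6, 0.593 on chromosome 1 and 0.595 on chromosome 2, whereas chromosome 4 stood at 1.04. Exact two-sided permutation by sign flips gave p = 0.00195. The limit of 200 kb was taken from the profile itself, so this p describes a pattern seen first and then tested on the same peaks. Leaving out each chromosome in turn kept the ratio between 0.715 and 0.766. The ends at the first peak gave 0.721 (exact permutation p = 0.00684) and those at the last peak 0.764 (exact permutation p = 0.0273). The outermost peak, which fixes the edge of the window, adds 1 peak to every outer stretch by construction, and without it the ratio was 0.694 with all 11 chromosomes lower.

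Bins with many peaks were the ones that were scarce at the very end. Of 44 bins of 100 kb in the outer 200 kb, 2 (4.55%) held 15 peaks or more, against 43 of 176 (24.4%) from 200 kb to 1 Mb and 236 of 880 (26.8%) from 1 to 5 Mb. Bins with 5 peaks or fewer made up 15.9%, 13.6% and 10.9% of the same zones. A bin that starts at the outermost peak holds at least that peak, so empty bins were not compared. In single ends the outer 200 kb held from 6 peaks, at the last end of chromosome 11, to 27, at the last end of chromosome 8. It held fewer than the following 200 kb at 19 of 22 ends. The exceptions were the first ends of chromosome 5 (16 against 12 peaks) and of chromosome 9 (20 against 12), and the last end of chromosome 7 (22 against 18). That following stretch includes the bin from 300 to 400 kb, whose mean of 13.0 was the highest of the terminal Mb. Against the other 800 kb of the window the outer 200 kb was sparser at 16 of 22 ends.

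**Figure D3:**
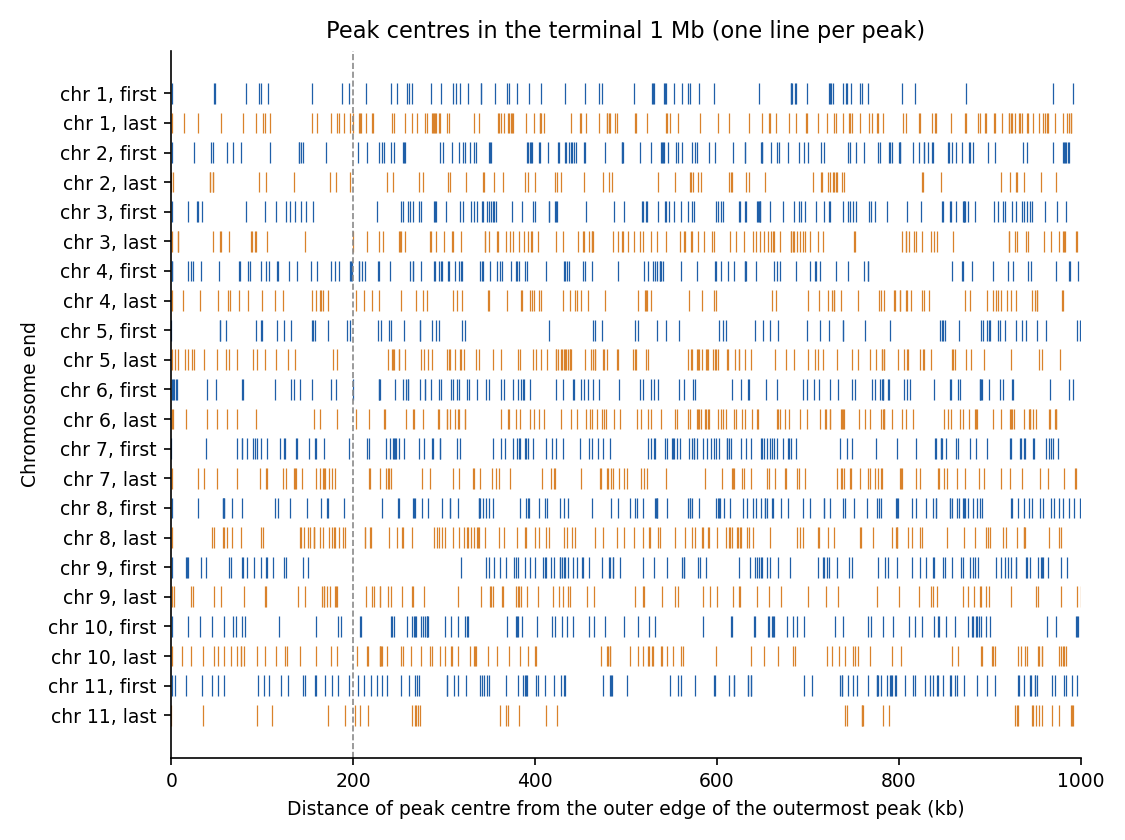
Centre of each peak (1 line) in the terminal 1 Mb of the 22 ends, by distance in kb from the outer edge of the outermost peak, with first ends in blue, last ends in orange and a dashed line at 200 kb. Lines are sparser left of the dashed line at 16 of 22 ends, and the long blank stretches at the last end of chromosome 11 and the first end of chromosome 9 are spans without peaks.

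Spans of 100 kb or more between neighbours numbered 3 in the 22 Mb of terminal windows, 3 in the 22 Mb of next windows and 169 in the 454 Mb further inside, given as a description. All 3 in the next windows lay at the last end of chromosome 11 (552, 146 and 109 kb). A span of 684 kb at that end crossed the limit between the next window and the interior, and was in none of these counts. Of the 3 terminal spans, 2 lay at the last end of chromosome 11. The longest ran for 317 kb there, from 36731707 to 37048694, between 424 and 741 kb from the outermost peak. A second of 138 kb, from 36544823 to 36683143, followed further in. The third, of 167 kb, lay at the first end of chromosome 9, from 205590 to 372912. At the other ends the longest span was at most 95.0 kb, on chromosome 1 from 1005393 to 1100361. The longest span of an end had a median of 60.9 kb and was as short as 39.3 kb at the first end of chromosome 2. At the last end of chromosome 8 the longest span, 43.9 kb, came right after the outermost peak, which stood alone at 75127264 to 75127516.

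The last end of chromosome 11 differed from the others in more than number. Its 40 peaks covered 10.4 kb, 1.04% of the window, whereas the median end had 4.21% of its bases under peaks and the last end of chromosome 1 had 5.74%. The median width of its peaks was 191 bp and the widest was 852 bp, while medians of the other ends ran from 269 to 349 bp. Its next 1 Mb held 8 peaks over 1.85 kb with a median width of 153 bp, and the third Mb held 30. In the fourth Mb the count was 108. The first end of chromosome 11 was ordinary, with 122 peaks, a median width of 309 bp and 4.39% of bases under peaks. Windows of 1 Mb were also laid from the first peak of that chromosome, without the first and last full one. Of these 35 windows, 2.86% held fewer peaks than its last end and 62.9% held fewer than its first. They do not line up with the windows counted from the last peak, so that share misses part of the sparse stretch. The list carries no mappability or depth, so their part in this end was not tested.

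Peaks of the terminal windows had the same median width as those of the next windows. The median peak spanned 303 bp both there (quartiles 205 and 462 bp) and in the next windows (198 and 459.5 bp). Peaks further than 2 Mb from both ends had a median of 290 bp. The median was wider in the terminal window at 11 ends and narrower at 11. Per chromosome the difference, terminal minus next, was 3.14 bp ± 22.7 (SD, n = 11; exact two-sided sign-flip permutation p = 0.689, adjusted p = 0.919). It was largest on chromosome 3, at 53.5 bp, and lowest on chromosome 7, at -23 bp. By distance, medians were 318 bp for the 372 peaks of the outer 200 kb and 293 to 305 bp in the zones of 200 kb inside it, so the median was not lower in the sparser outer stretch. Bases under peaks made up 3.93% of the terminal windows and 4.26% of the next ones.

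**Figure D4:**
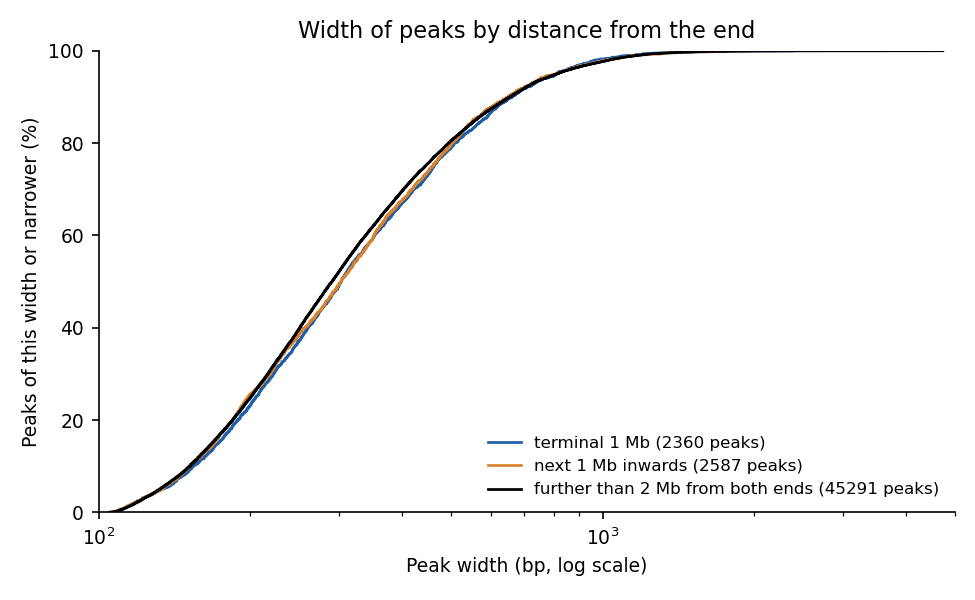
Cumulative share of peaks (percent, y axis) by width (bp, log x axis) for the terminal 1 Mb, the next 1 Mb and peaks further than 2 Mb from both ends. The terminal and next curves share a median of 303 bp, and the curve of the remaining peaks crosses the middle at 290 bp. Peaks under 200 bp made up 23.1% of the terminal, 25.6% of the next and 24.7% of the remaining peaks.

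Wide peaks occurred at nearly all ends. Of the terminal peaks, 42 (1.78%) were 1 kb or wider, against 56 (2.16%) in the next windows and 1063 (2.35%) further inside. Each end held 0 to 6 of them, the most at the first end of chromosome 7, and none stood at the first end of chromosome 10 or the last end of chromosome 11. The widest was 2388 bp, on chromosome 2 from 552793 to 555180, and was the only terminal peak over 2 kb. It was followed by peaks of 1939 bp on chromosome 8, from 83193 to 85131, and of 1791 bp on chromosome 4, from 27749896 to 27751686. The outermost peak of an end was usually ordinary in width, with a median of 278 bp and 4 of 22 under 200 bp. The exception was the last peak of chromosome 7, from 55637007 to 55638499, which at 1493 bp was also among the widest of all terminal peaks. On chromosomes 1 and 5, whose first peaks lay over 100 kb from base 1, these peaks ran from 131352 to 131846 (495 bp) and from 376119 to 376235 (117 bp).

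The median gap between neighbours was 5.36 kb in the terminal windows, 4.99 kb in the next ones and 5.83 kb further inside. Gaps of 150 to 700 bp, the range taken here as short, made up 9.92% of the 2338 terminal gaps (232) and 10.2% of the 2565 next gaps (261). Per chromosome the difference in this share was -0.024 percentage points ± 3.35 (SD, n = 11; exact two-sided sign-flip permutation p = 0.983, adjusted p = 0.983). At single ends the share ran from 4.29% at the first end of chromosome 5 to 14.1% at the first end of chromosome 8. The tightest group in about 10 kb was at the last end of chromosome 5, with 8 peaks from 44340172 to 44350322, followed by 7 at the last end of chromosome 1, from 41525058 to 41533320. Both lay over 200 kb from the outermost peak. The other ends reached 4 to 6 peaks in their fullest stretch of about 10 kb.

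**Figure D5:**
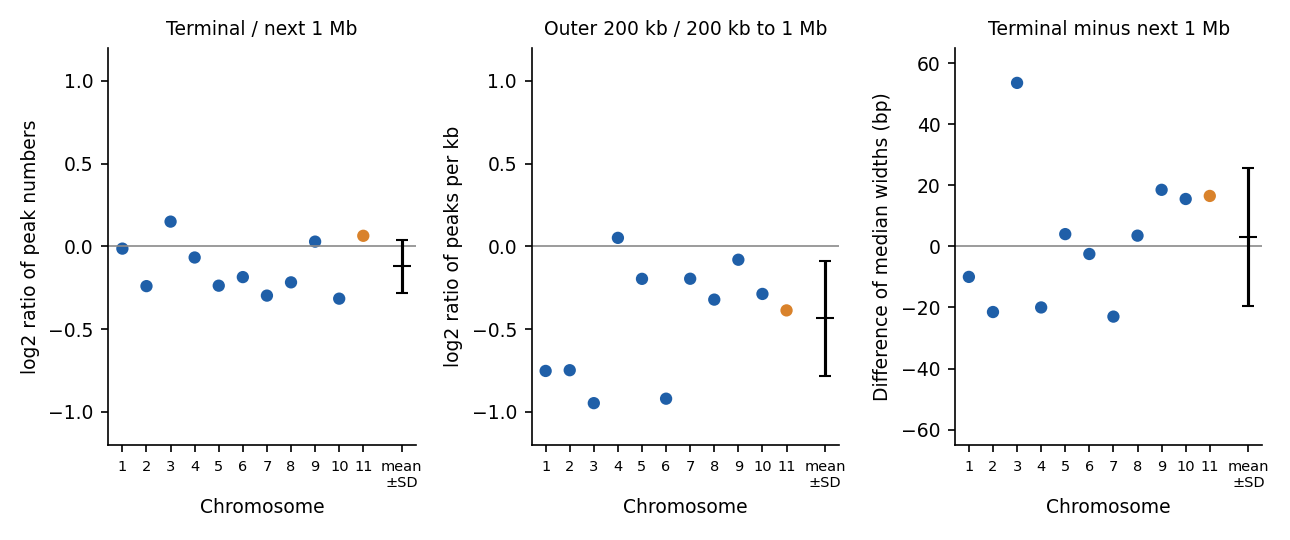
Values per chromosome (points, chromosome 11 in orange) and their mean with SD (n = 11): log2 ratio of peaks in the terminal to the next 1 Mb, log2 ratio of peaks per kb in the outer 200 kb to the rest of the terminal 1 Mb, and difference of median widths in bp. The points of the middle panel lie below 0 on 10 of 11 chromosomes (mean -0.44), those of the left panel on 8 (mean -0.12), and widths scatter around 0 (mean 3.14 bp).

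At the 1 Mb limit itself, the last 50 kb inside held 121 peaks over all ends and the first 50 kb outside held 130. The median widths there were 276 and 323.5 bp.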

How the data were processed

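Peaks were deposited as a single consensus list with 3 columns (chromosome, start, end) and no header, score or column of a library. Per the submitters' processing notes, fastp 1.0.1, Bowtie2, SAMtools 1.22.1, MACS3 3.0.3 and bedtools 2.28.0 were among the tools. The sources used here do not give their roles, the peak threshold, the build of the genome or the handling of multiply mapped reads. Discarding multiply mapped reads can empty repeats and joining libraries can widen peaks, and neither was tested here.

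From the intervals, windows of 1 Mb were laid inwards from the outermost peaks, and peaks were assigned by their centre. A gap belonged to a window that held both centres. Starts are printed counted from 1. The 4 planned contrasts used exact two-sided sign-flip permutation tests over 11 chromosomes (2048 sign patterns, smallest p 0.000977) with Benjamini-Hochberg adjustment, in Python 3.11.15, numpy 2.4.6 and pandas 2.3.3. The code recovered the set ratios and widths in simulated lists with peaks placed at even density. Peaks here are not evenly spread, so those lists do not show how the p values behave on them. The contrast of the outer 200 kb has no adjusted value. Named were the 3 ends at either extreme of peak number and of the ratio to the next window, the 3 with the longest span, the 3 widest peaks and first peaks over 100 kb from base 1. All other ends, spans and peaks named were picked after their values were seen.

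The members and contrasts were chosen with earlier results of these data known. A gene table of another assembly was not joined: on 11 of 11 chromosomes peaks lay past its last gene. Alternatives covered window length, the peak set (merging below 150 bp, or dropping the narrowest 25%), bases in place of peaks, each kind of end and each chromosome left out.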

Additional observations from a re-analysis of the deposited data

How the results depend on the processing

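The ratio of terminal to next peaks (log2 -0.12) did not pass the adjusted threshold of 0.05. It did pass with first ends only (-0.20, adjusted p = 0.0156, exact permutation). Added after seeing the data, it also passed without the last end of chromosome 11 (-0.15, adjusted p = 0.0430, exact permutation). Windows of 200 kb, also added after seeing the data, gave -0.51 (adjusted p = 0.0156, exact permutation). That length is the limit taken from the profile, so this setting draws on the same pattern as the outer 200 kb. In 1 Mb windows, last ends alone reversed the ratio of terminal to next peaks (0.12), which rested on chromosome 11 (-0.10 without it). With each chromosome left out it ran from -0.15 to -0.10 (adjusted p = 0.0703 to 0.258, exact permutation), and windows of 2 Mb gave -0.02. The contrast of the outer 200 kb, with all its alternatives added after seeing the data, kept its direction and an exact permutation p below 0.05 under 19 of 19, from -0.53 to -0.33 and, with chromosomes left out, -0.48 to -0.38; the weakest was without the narrowest 25% of peaks (p = 0.0371). The width difference (3.14 bp) was not past the threshold in any setting and turned to -6.14 bp without the narrowest peaks, -0.73 bp against the second to the fifth Mb and -2.36 bp against the third, with 13.3 bp in windows of 500 kb, 12.3 bp with last ends only and -1.90 to 5.75 bp when chromosomes were left out. The share of short gaps (-0.024 points) turned to 0.823 with last ends only and 0.536 for gaps under 1000 bp, and was -1.90 in windows of 500 kb and -0.99 against the third Mb, with -0.430 to 0.573 when chromosomes were left out. The ratio of first to last ends ran from -0.030 to 0.23 with chromosomes left out, negative only without chromosome 11. For these changes the cause was not tested. The adjusted p values cover 4 tests and not the choice among settings. Depth is unknown, so a sparse window cannot be told apart from low coverage. No paired analysis was possible because no values per library are in the consensus list, nor could a replicate be left out.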
